A study of Mus musculus with 5 samples.

Results

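The genes of oxidative phosphorylation were followed in mouse hepatocytes between feeding and 24 h without food. They were chosen by symbol from the 32285 genes of the deposited count matrix, as the nuclear genes named Nduf (followed by a, b, c, s or v), Sdh, Uqcr, Cox4 to Cox8 and Atp5, without pseudogene symbols, and the protein-coding genes of mitochondrial DNA (mtDNA). This gave 97 members, 84 encoded in the nucleus and 13 in mtDNA. Of the nuclear members 35 belong to complex I, 4 to complex II, 8 to complex III, 20 to complex IV and 17 to complex V, where Ndufa4 and Ndufa4l2, named after complex I, were placed in complex IV, in which the Ndufa4 protein is found. Of the mtDNA members 7 belong to complex I, 1 to complex III, 3 to complex IV and 2 to complex V.

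Oxidative phosphorylation is the last stage of respiration in the inner mitochondrial membrane. Complexes I and II take electrons from NADH and from succinate, complex III passes them to cytochrome c and complex IV to oxygen, and the protons pumped on the way drive ATP synthesis in complex V. The proteins come from both genomes, since complex II is wholly nuclear-encoded and the other complexes hold subunits of both. In the fasted liver this chain oxidises the NADH and FADH2 made in fatty acid oxidation and supplies the ATP used in gluconeogenesis.

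Hepatocytes had been isolated from male C57BL/6J mice of wild-type genotype, kept on normal chow, and profiled with droplet-based sequencing of the 3' ends of RNA, which counts molecules by unique molecular identifiers (UMIs). All groups had been trained for 3 days to fast overnight for 16 h and to feed for 8 h in the daytime, and on the last day received food and water with 20% sucrose. The fed group was taken at 13 o'clock after 4 h of feeding, and the fasted groups 4, 8, 16 and 24 h after food was withdrawn, at 17, 21, 5 and 13 o'clock. Fasting time and clock hour therefore cannot be told apart, except that the fed and the 24 h group share a clock hour. Each group was 1 library, and the labels give neither the age nor the number of the mice. With no replicates no test across animals was possible, and every interval below is an exact 95% interval that covers counting error only.

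Of 50000 deposited barcodes, 10000 per library, 28810 were kept as hepatocytes, by limits of 1000 or more UMIs, 500 or more genes and a mitochondrial share of 2 to 30%. They numbered 7826, 4567, 2716, 9125 and 4576 in the order fed, 4, 8, 16 and 24 h, the order used for all values below, with 37488357 to 56523643 UMIs per library. At 8 h 3325 of the 10000 barcodes passed the UMI and gene limits, against 9363 to 10000 in the other libraries. Their median depth was 5408, 12097, 15005, 4391 and 8979 UMIs, so that the fed and the 16 h hepatocytes were the shallowest. The 8 hepatocyte markers made up 80285 to 106813 CPM (UMIs of a gene in each 1000000 UMIs), while the 10 endothelial markers summed to 10.6 to 86.9 CPM and the 10 macrophage markers to 0.400 to 38.2 CPM, both highest in the fed library. Markers of stellate cells, cholangiocytes, lymphocytes, neutrophils and erythroid cells summed to at most 24.2, 68.7, 4.45, 0.883 and 60.4 CPM in any library. Of those barcodes past the UMI and gene limits, 2172, 5345, 576, 234 and 5400 had under 2% mitochondrial UMIs and were left out. Between 22 and 30 barcode sequences were shared between any pair of libraries.

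The nuclear-encoded members together held 2.44, 2.35, 2.73, 1.85 and 2.53% of all hepatocyte UMIs. The 16 h library was the lowest and the 8 h library the highest. Against fed, the log2 ratios of the total were -0.053 (-0.056 to -0.049), 0.163 (0.159 to 0.167), -0.401 (-0.405 to -0.396) and 0.054 (0.050 to 0.058) at 4, 8, 16 and 24 h. The small 4 h difference changed sign in 8 of 11 other settings. These included only nuclear-encoded UMIs as the denominator (0.072). They included scaling by TMM, the trimmed mean of ratios between libraries (0.25), or by medians of ratios (0.22). Cells of 5 to 20% mitochondrial UMIs (0.13) and the mean over cells (0.11) were also among them. The lower level at 16 h kept its direction in each of 11 other settings, between -0.66 and -0.23. The 24 h total stayed above fed in each of them, between 0.021 and 0.45, and the 8 h total in each but the setting that admitted barcodes from 0% mitochondrial UMIs (-0.059). TMM scaling moved the median log2 ratio of 1754 genes at 50 CPM or more in every library from -0.096, 0.029, -0.018 and -0.038 to 0.21, 0.20, 0.061 and 0.18 at the 4 fasted times in order. Relative to that median, under either scaling, the nuclear-encoded total differed from fed by 0.043, 0.13, -0.38 and 0.092 at 4, 8, 16 and 24 h. In bulk sums of this kind a smaller share of cells rich in a transcript and less of it per cell give the same value.

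**Figure D1:**
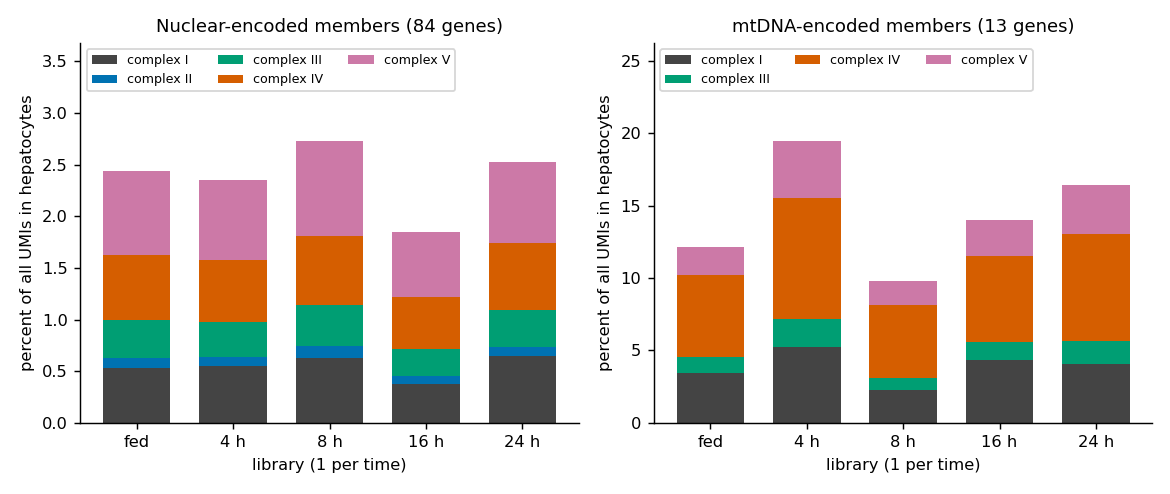
Share of all hepatocyte UMIs held by the nuclear-encoded (left) and mtDNA-encoded (right) members in percent, stacked by complex, with 1 bar per library. The nuclear-encoded bar is lowest at 16 h (1.85%) and the mtDNA-encoded bar lowest at 8 h (9.78%) and highest at 4 h (19.4%).

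Each complex had its lowest nuclear-encoded total at 16 h. Complex I subunits summed to 0.532, 0.552, 0.632, 0.374 and 0.647% of all UMIs, and complex V subunits to 0.815, 0.767, 0.922, 0.630 and 0.789%. Complex IV summed to 0.626, 0.607, 0.661, 0.500 and 0.643%, complex III to 0.370, 0.341, 0.399, 0.261 and 0.361%, and complex II to 0.0931, 0.0811, 0.114, 0.0800 and 0.0885%. At 16 h the log2 ratio to fed was -0.51 for complex I, -0.50 for complex III, -0.37 for complex V, -0.32 for complex IV and -0.22 for complex II. The complexes I and III thus had the larger differences, and complex II the smallest.

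The share of nuclear-encoded members moved with the mitochondrial share of the barcode. Within the band of 8 to 14% mitochondrial UMIs they held 2.72, 3.93, 3.00, 2.19 and 3.36% of nuclear-encoded UMIs, and within 14 to 20% they held 2.46, 2.98, 2.90, 2.10 and 2.81%. In the band of 2 to 8% the values were 4.30, 6.23, 3.13, 2.70 and 6.08%, and in that of 20 to 30% they were 1.82, 2.57, 2.32, 1.78 and 2.05%. The 16 h library was the lowest of the 5 in each of these bands, and the 4 h library the highest. In the 14 to 20% band, which held 1895, 1734, 110, 3713 and 1953 cells, the nuclear-encoded total relative to fed on the scale of all UMIs was 0.24, 0.25, -0.23 and 0.17. Hepatocyte markers in the 2 to 8% band made up 7.89, 5.50, 10.0, 9.74 and 5.68% of nuclear-encoded UMIs, against 13.4, 9.63, 9.05, 13.3 and 11.0% in the 14 to 20% band.

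**Figure D2:**
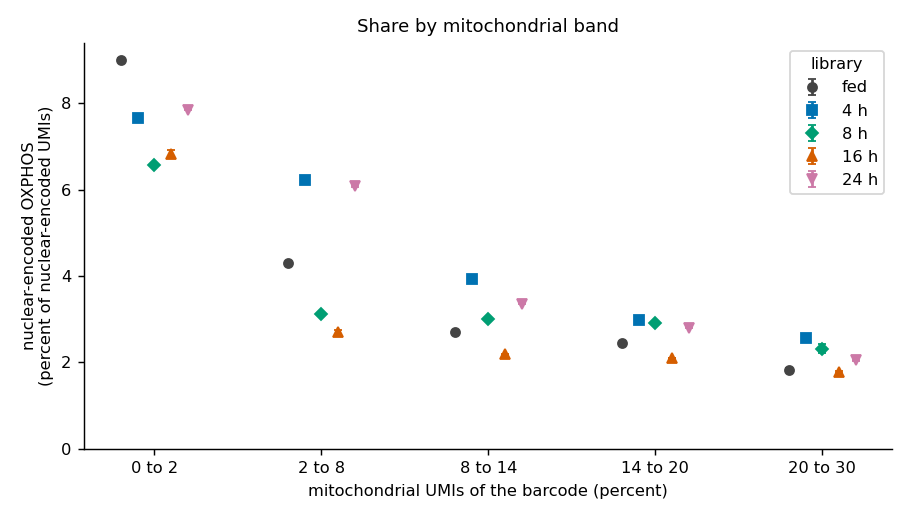
Nuclear-encoded members as percent of nuclear-encoded UMIs, by the mitochondrial share of the barcode (percent), with 1 symbol per library and bars for the exact 95% counting interval. From 2% up the 16 h library is the lowest in every band, for example 2.10% at 14 to 20% against 2.46% in fed, and the band under 2% holds 6.56 to 9.01%.

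In single cells too the 16 h library was the lowest. With each cell thinned to 1000 nuclear-encoded UMIs, the median share of nuclear-encoded members was 2.6, 2.9, 2.9, 2.1 and 2.9% (2.55, 2.81, 2.92, 2.10 and 2.86% without thinning), and thinning left out 0, 4, 25, 122 and 0 cells. At 16 h 42.1% of the cells lay under the lower quartile of the fed cells and 2.67% above the upper one. At 24 h 17.1% lay under and 37.6% above these limits. Within a library the unthinned share and the mitochondrial percentage had a Spearman correlation across cells of -0.33, -0.70, -0.11, -0.21 and -0.75, a description over cells that share a library and whose 2 shares come from the same UMIs.

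A member was called where it differed from fed by at least 1.5-fold and reached 50 CPM in either library. Of the 97 members 89 reached 50 CPM in at least 1 library, 54 were called at 1 or more times (44 nuclear-encoded and 10 mtDNA-encoded) and 35 were not called at any. None was called in 1 direction at all 4 times. The background is the share of all genes at the minimum that passed the same fold.

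At 4 h 6 of 75 nuclear-encoded members were higher and 6 lower, and of the 13 mtDNA members 6 were higher and 2 lower, where 10.7% of 2626 genes were higher and 21.6% lower. Of these 6 higher mtDNA calls, 2 stayed past 1.5-fold in each of 11 settings. At 8 h 17 of 76 nuclear-encoded members were higher and 5 lower, and 4 mtDNA members were lower, against 19.9% and 21.8% of 2790 genes. The 8 h library had fewer barcodes past the limits and less Malat1 and Neat1 than the others, and the part of this in its calls was not tested. At 16 h none of 75 nuclear-encoded members was higher and 26 were lower, with no mtDNA member called, against 9.21% and 14.7% of 2681 genes. The acute-phase genes Saa1, Saa2 and Saa3 summed to 533, 1804, 49.6, 8658 and 28.7 CPM, highest at 16 h. The part of this in the 16 h calls was not tested. At 24 h 11 of 75 nuclear-encoded members were higher and 3 lower, and 3 mtDNA members were higher and 2 lower, against 14.4% and 23.7% of 2679 genes. Counted over both genomes, 12 higher and 8 lower at 4 h became 26 and 2 under TMM scaling, 17 and 9 at 8 h became 23 and 5, 14 and 5 at 24 h became 25 and 2, and 0 and 26 at 16 h became 2 and 24. Under that scaling 22.7, 28.3, 12.5 and 24.1% of all genes tested were higher and 10.2, 16.3, 11.7 and 16.0% lower at 4, 8, 16 and 24 h. The median log2 ratio of the nuclear-encoded members was -0.064, 0.091, -0.47 and 0.074 at 4, 8, 16 and 24 h, beside -0.16, 0.013, -0.044 and -0.11 over all nuclear-encoded genes at the minimum. When barcodes from 0% mitochondrial UMIs were admitted, 19, 7, 2 and 41 members of both genomes were higher and 3, 15, 45 and 2 lower. Of all genes tested 12, 18.5, 9.63 and 21.8% were then higher and 22.4, 23, 17.3 and 26.8% lower.

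**Figure D3:**
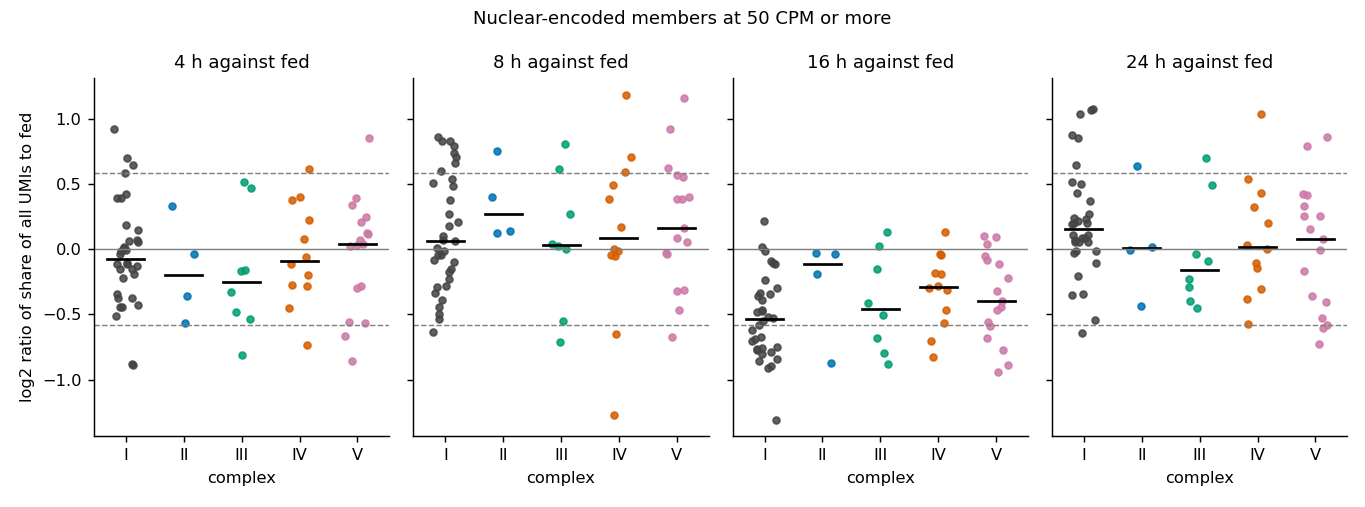
Log2 ratio to fed of each nuclear-encoded member at 50 CPM or more (1 point per gene), by complex and fasting time, with black lines at the median of the complex and dashed lines at 1.5-fold. At 16 h 26 of 75 points lie under the lower dashed line and none above the upper one.

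Of the 76 nuclear-encoded members that reached 50 CPM in any library, 52 (68.4%) had their lowest level of the 5 libraries at 16 h, compared with 24.4% of 2960 nuclear-encoded genes. The 8 h library was the highest for 34 members (44.7%, compared with 29.8% of those genes) and the 24 h library for 23 (30.3%, compared with 14.4%). Of the 26 members called lower at 16 h, 15 (of 34 tested) belong to complex I and 5 (of 17) to complex V. Another 3 (of 8) belong to complex III, 2 (of 12) to complex IV and 1 (of 4) to complex II.

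Among the complex I genes, Ndufa5, an accessory subunit, had 140, 129, 141, 56.6 and 165 CPM. It was the member with the lowest ratio at 16 h, with a log2 ratio to fed of -1.31 (-1.38 to -1.24). Ndufs5, another accessory subunit, had 138, 102, 109, 73.2 and 135 CPM and a ratio of -0.91 at 16 h. Ndufb9, the most abundant nuclear member of complex I by UMIs, had 459, 614, 654, 272 and 830 CPM, so that it was called lower at 16 h (-0.76) and higher at 24 h (0.85). The lower call lay at -0.58 in cells of 14 to 20% mitochondrial UMIs, just short of 1.5-fold. Ndufa9 lay near the minimum with 56.4, 30.5, 38.8, 36.8 and 36.2 CPM and was called lower at 4, 16 and 24 h, with its 24 h ratio of -0.64 turning to 0.017 when barcodes from 0% mitochondrial UMIs were admitted. TMM scaling also took Ndufa9 out of the calls at each of the 3 times.

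Of 10 Ndufb genes, which encode subunits of the membrane arm of complex I, 4, 4, 0 and 5 were called higher at 4, 8, 16 and 24 h and 0, 1, 4 and 0 lower. Of all genes tested 10.7, 19.9, 9.21 and 14.4% were higher and 21.6, 21.8, 14.7 and 23.7% lower. Ndufb2 was called lower at 8 h (-0.64) and 16 h (-0.85). Ndufb5 had 124, 235, 214, 125 and 259 CPM, with ratios to fed of 0.92, 0.79, 0.014 and 1.06. Ndufb8 had 111, 180, 185, 77.4 and 234 CPM. Ndufb10 had 106, 160, 189, 61.1 and 218 CPM, and Ndufb11 had 111, 173, 198, 94.3 and 204 CPM. Each of these 4 was at least 1.5-fold above fed at 4, 8 and 24 h, and at 16 h Ndufb10 was called lower (-0.80, lost at -0.51 in cells of 14 to 20% mitochondrial UMIs) while the other 3 were not called. At 8 h the calls of Ndufb8, Ndufb10 and Ndufb11 were lost with the mean over cells and with barcodes from 0% mitochondrial UMIs, where the ratios came to 0.37 to 0.46 at the lowest. The calls of Ndufb10 at 4 h and of Ndufb5 at 8 h were each lost in 1 setting, at 0.58. At 24 h the 4 ratios stayed at 0.83 or more in each of 11 settings.

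Complex II, which is also the succinate dehydrogenase of the citric acid cycle, has 4 subunits. Sdha, its flavoprotein, had 442, 345, 482, 388 and 327 CPM and was not called at any time, nor was the membrane anchor Sdhc with 216, 210, 284, 210 and 218 CPM. Sdhb, the iron-sulfur subunit, had 151, 102, 166, 82.6 and 150 CPM and was called lower at 16 h (-0.87). Sdhd, the other membrane anchor, had 122, 154, 205, 120 and 190 CPM and was called higher at 8 h (0.75) and 24 h (0.64). The 8 h call of Sdhd and the 16 h call of Sdhb were lost in cells of 14 to 20% mitochondrial UMIs (0.43 and -0.56).

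In complex III, Uqcrq was the most abundant nuclear member, with 1040, 924, 1042, 734 and 974 CPM, and was not called. The small subunits Uqcr10 and Uqcr11 were called lower at 16 h, at -0.79 and -0.88. The Rieske iron-sulfur protein Uqcrfs1 had 199, 284, 348, 218 and 323 CPM and was called higher at 8 h (0.81) and 24 h (0.70). Cyc1, the cytochrome c1 of the same complex, lies outside the symbol rule and had 310, 185, 300, 202 and 201 CPM, which was lower than fed by at least 1.5-fold at 4, 16 and 24 h. Ndufab1, the acyl carrier protein of complex I and likewise outside the rule, had 167, 168, 146, 113 and 204 CPM and was not called.

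Complex IV holds subunits with tissue-specific copies. The liver forms were present, with Cox6a1 at 226 to 347 CPM, Cox8a at 590 to 960 CPM and Cox7a2 at 409 to 565 CPM. Their muscle counterparts were at or near 0, since Cox6a2 reached 0.325 CPM in the fed library and had no UMI in the others, Cox7a1 lay at 3.18 to 5.36 CPM, and Cox8b had no UMI in any library. Cox7b2 and Cox8c also had no UMI, and a count of 0 allows up to 0.0531 to 0.0800 CPM per library. Cox4i2, Cox6b2 and Ndufa4l2 stayed under 2 CPM and complete the 8 members that never reached the minimum. Cox4i1, the common form of subunit 4, had 546, 576, 711, 480 and 627 CPM and was not called.

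Cox7c, the most abundant nuclear member of complex IV by mean level, had 778, 1028, 1174, 640 and 972 CPM, and its call at 8 h (0.59) was lost in 4 of 11 settings. Cox7b had 435, 261, 180, 351 and 293 CPM and was the lowest nuclear member at 8 h relative to fed, at -1.27 (-1.31 to -1.23). Cox7a2l, a factor in the joining of complexes III and IV into supercomplexes, had 86.2, 132, 196, 94.2 and 176 CPM. Its ratios to fed were 0.61, 1.18, 0.13 and 1.03, with that at 8 h the highest of the nuclear members. The 4 h call was lost in cells with at least 3000 UMIs (0.58). Cox7b and Cox7a2l thus took opposite orders between fed and 8 h within the same complex.

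Complex V showed the same contrast between genes for 1 protein. Atp5g1, Atp5g2 and Atp5g3 encode precursors of the same mature subunit c, the rotating ring of ATP synthase. Atp5g1 had 581, 671, 758, 340 and 693 CPM, lowest at 16 h. Atp5g2 had 231, 417, 514, 236 and 418 CPM, low in fed and at 16 h and higher in the other libraries. Atp5g3 had 874, 481, 633, 750 and 576 CPM, highest in fed. Their log2 ratios at 4 h were 0.21, 0.85 and -0.86, and at 16 h -0.78, 0.035 and -0.22. The sum of these genes came to 0.169% of all UMIs in fed and to 0.157, 0.190, 0.133 and 0.169% at 4, 8, 16 and 24 h, so that it varied less than its parts between fed and 4 or 24 h. The call of Atp5g3 at 4 h was lost with TMM scaling (-0.56), and at 24 h, where it was -0.60, it was past 1.5-fold in 3 of 11 settings. The 16 h call of Atp5g1 was lost in cells of 14 to 20% mitochondrial UMIs (-0.54).

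The promoters of these genes are printed to show how different the start regions of genes for 1 mature protein are. Each runs from 250 bases before to 50 after the annotated start in the RefSeq table for GRCm38.p6, on the minus strand, at chr11:96075582-96075881 for Atp5g1, chr15:102670998-102671297 for Atp5g2 and chr2:73911277-73911576 for Atp5g3. Capitals mark matches to the letters GCATGCGC or TCAAGGTCA on either strand, which are sites of NRF1 and of estrogen-related receptors (ERR), both regulators of respiratory genes.
Atp5g1: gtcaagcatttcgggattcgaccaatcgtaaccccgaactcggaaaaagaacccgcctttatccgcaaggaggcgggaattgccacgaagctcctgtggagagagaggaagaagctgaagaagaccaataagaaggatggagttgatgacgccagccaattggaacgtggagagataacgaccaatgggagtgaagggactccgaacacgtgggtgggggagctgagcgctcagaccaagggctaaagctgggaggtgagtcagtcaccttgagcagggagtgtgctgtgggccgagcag
Atp5g2: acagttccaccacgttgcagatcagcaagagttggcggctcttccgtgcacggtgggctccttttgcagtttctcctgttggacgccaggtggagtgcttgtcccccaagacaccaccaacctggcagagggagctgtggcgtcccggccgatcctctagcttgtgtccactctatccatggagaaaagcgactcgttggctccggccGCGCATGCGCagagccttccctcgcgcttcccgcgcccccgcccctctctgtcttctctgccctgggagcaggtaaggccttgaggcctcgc
Atp5g3: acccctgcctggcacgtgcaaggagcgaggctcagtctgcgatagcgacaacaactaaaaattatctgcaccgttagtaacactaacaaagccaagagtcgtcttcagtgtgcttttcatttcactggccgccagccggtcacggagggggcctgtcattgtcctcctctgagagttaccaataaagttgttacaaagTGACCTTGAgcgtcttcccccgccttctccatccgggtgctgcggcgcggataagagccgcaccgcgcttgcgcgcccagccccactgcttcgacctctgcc
Atp5g1 had no match, Atp5g2 had 2 overlapping NRF1 matches and Atp5g3 had 1 ERR match. A promoter was found for 68 of the 84 nuclear-encoded members. The NRF1 letters stood in 14.7% of these promoters and in 3.05% of 27025 promoters of all genes, the ERR letters in 2.94% and 0.466%. CCGGAAG, a site of ETS factors, stood in 17 of 68 and in 9.93%, and AAGATGGC, a site of YY1, in 14.7% and 3.19%, all counted on either strand, where no motif was masked for overlap with another. Among Cox7a2l, Ndufb5, Ndufb8, Ndufb10 and Ndufb11, 1 promoter (Ndufb8) held any of these letters, a YY1 match. Like these genes, Atp5g2, which held the NRF1 matches, was called higher at 4, 8 and 24 h. These are matches of letters, and no binding was measured.

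**Figure D4:**
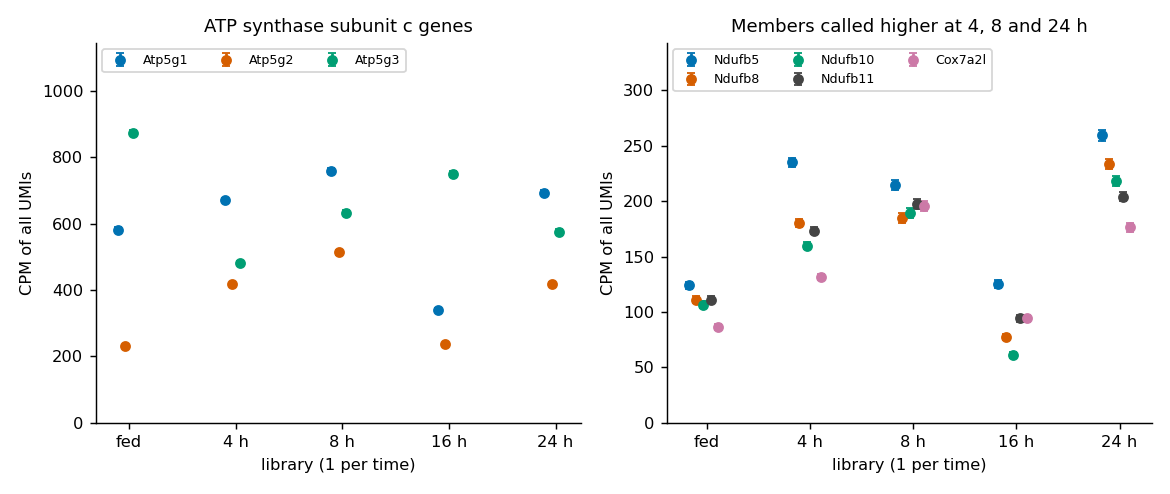
Level in CPM of all UMIs of the subunit c genes (left) and of 5 members called higher at 4, 8 and 24 h (right), with 1 point per library and bars for the exact 95% counting interval. Atp5g2 lies at 231 CPM in fed and 514 CPM at 8 h, while Atp5g3 lies at 874 and 633 CPM.

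Other complex V genes were Atp5e, the epsilon subunit and the most abundant nuclear-encoded member of complex V by mean level, with 932, 1017, 1044, 619 and 831 CPM, and Atp5d, the delta subunit, with 348, 353, 657, 235 and 437 CPM. The 16 h call of Atp5e (-0.59) was past 1.5-fold in 4 of 11 settings. Atp5d was called higher at 8 h (0.92). Atp5k, a small membrane subunit, had 538, 363, 431, 280 and 324 CPM and was called lower at 16 h (-0.94) and 24 h (-0.73), the latter lost in 4 of 11 settings, down to -0.37. The catalytic beta subunit Atp5b had 783, 493, 812, 566 and 590 CPM, and its call at 4 h (-0.67) was lost in 6 of 11 settings.

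The mtDNA-encoded members held 12.2, 19.4, 9.78, 13.98 and 16.40% of all UMIs. Relative to fed this was a log2 ratio of 0.68, -0.31, 0.20 and 0.43 at 4, 8, 16 and 24 h. The cell filter of 2 to 30% mitochondrial UMIs is set on these same 13 genes, so the total is bounded by it and is a description only. Within cells of 14 to 20% the ratios were 0.18, -0.041, 0.056 and 0.12, and when barcodes from 0% were admitted they were 0.54, -0.25, 0.31 and 0.072. For 10 of the 13 genes the 8 h library was the lowest, and for 10 the 4 h library was the highest. The order differed from that of the nuclear-encoded total over all UMIs, whose lowest library was 16 h and whose highest was 8 h. Over nuclear-encoded UMIs that total was also lowest at 16 h, but it was 3.023% at 8 h and 3.024% at 24 h.

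All mtDNA members of the sense strand come from the same long transcript, which is cut into separate RNAs. mt-Co1, the catalytic subunit of complex IV, had 24101, 35699, 21305, 24008 and 33766 CPM, and mt-Atp6, the proton channel subunit of complex V, had 16127, 37480, 16282, 20471 and 31827 CPM. mt-Co2 had 10460, 23898, 13451, 12242 and 18520 CPM, and mt-Cytb of complex III had 10643, 19479, 8491, 12617 and 16091 CPM. These 4 genes were highest at 4 h. The 4 h calls of mt-Co2 (1.19) and mt-Atp6 (1.22) were past 1.5-fold in each of 11 settings, while that of mt-Cytb (0.87) was lost in cells of 14 to 20% mitochondrial UMIs (0.40). mt-Co3 varied least of the 13, from 15208 CPM at 8 h to 24154 CPM at 4 h.

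Among the complex I genes of mtDNA, mt-Nd1, mt-Nd3, mt-Nd4 and mt-Nd5 were each highest at 4 h and lowest at 8 h, with mt-Nd4 between 8013 and 17626 CPM. mt-Nd4l had 4290, 5609, 3778, 3241 and 4885 CPM, and for it 16 h was the lowest library. mt-Nd2 had 9760, 12302, 3302, 14580 and 9170 CPM. Its ratio at 8 h was -1.56, while that of mt-Nd1 beside it was -0.32. mt-Nd6, the protein-coding gene on the other strand, had 409, 162, 32.4, 307 and 156 CPM, with ratios of -1.34, -3.66, -0.41 and -1.39. It was called lower at 4, 8 and 24 h, and these calls were past 1.5-fold in each of 11 settings. Those settings change the scaling and the cells only, and the part of RNA capture in these ratios was not tested.

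mt-Atp8 and mt-Atp6 are translated from 1 RNA, and their UMIs did not keep 1 ratio. mt-Atp8 had 3491, 1640, 515, 4310 and 1683 CPM, with ratios of -1.09, -2.76, 0.30 and -1.05. For each 100 UMIs of mt-Atp6 there were 21.6 (21.5 to 21.8), 4.38 (4.35 to 4.41), 3.16 (3.12 to 3.21), 21.1 (20.9 to 21.2) and 5.29 (5.25 to 5.33) of mt-Atp8. The fed and the 16 h value were alike in size, and each of the other 3 was at most 5.29. By mitochondrial share, the ratio was 20.6, 4.02, 3.27, 21.1 and 4.82 in the 8 to 14% band and 23.0, 4.31, 3.32, 20.6 and 5.18 in the 14 to 20% band. It was 24.5, 4.69, 2.44, 20.6 and 5.57 at 2 to 8%, and 30.9, 4.45, 2.52, 23.6 and 5.66 at 20 to 30%, where the 8 h library had 20 cells. Barcodes under 2% had 35.1, 6.95, 4.78, 13.7 and 7.10, so there the fed and the 16 h value were not alike, but both were still above the other 3. The fed and the 16 h library were also the shallowest per cell over all hepatocytes. They were the shallowest at 14 to 20% too, where the medians were 5278, 17368, 7711.5, 4347 and 13205 UMIs, and at 20 to 30%, with 3713.5, 13372, 5421, 2929 and 9381.5. At 8 to 14% the 4 h cells were the shallowest, with 6386.5, 1725, 16557, 4697 and 7958.5, and at 2 to 8% likewise, with 1859, 1686.5, 10646, 1820.5 and 2690 UMIs. The parts of depth and of RNA capture in the ratio were not tested. Malat1, a nuclear RNA, had 3977, 2729, 953, 2957 and 2493 CPM, lowest at 8 h. In that library 10 of the 13 mtDNA members were lowest too, mt-Atp8 and mt-Nd6 among them. Neat1, another nuclear RNA, had 1280.1, 1270.5, 254, 1694 and 510.3 CPM.

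The reading frame of mt-Atp8 (chrM:7766-7969) ends inside that of mt-Atp6 (chrM:7927-8607), both on the plus strand. The stretch they share is printed from GRCm38 to show that some reads there belong to both genes, so that the counting decides their gene. It covers chrM:7927-7969, with the start codon of mt-Atp6 and the stop codon of mt-Atp8 in capitals.
Shared stretch: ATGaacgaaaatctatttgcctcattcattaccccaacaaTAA
The 43 bases leave most of either gene outside the overlap. mt-Nd4l (chrM:9877-10173) likewise overlaps the start of mt-Nd4 (chrM:10167-11544). mt-Nd6 (chrM:13552-14070, minus strand) overlaps the end of mt-Nd5 (chrM:11742-13565, plus strand) from the opposite strand. Per 100 UMIs of mt-Nd5 there were 18.7, 5.17, 2.63, 12.5 and 5.54 of mt-Nd6. Per 100 UMIs of mt-Nd4 there were 40.8, 31.8, 47.1, 25.2 and 33.5 of mt-Nd4l, which is highest at 8 h and lowest at 16 h. The pair mt-Nd4l and mt-Nd4 therefore had another order than the pairs mt-Atp8 with mt-Atp6 and mt-Nd6 with mt-Nd5. The pair mt-Co1 and mt-Co2 had 230, 149, 158, 196 and 182 UMIs of mt-Co1 per 100 of mt-Co2, likewise highest in fed and at 16 h.

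**Figure D5:**
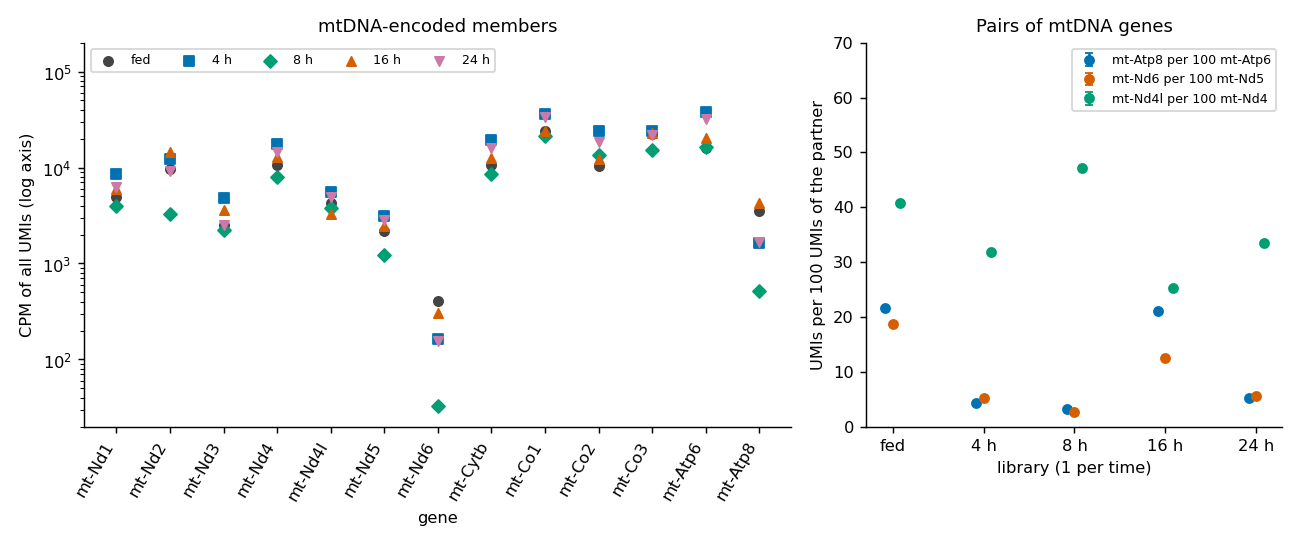
Left, level of each mtDNA-encoded member in CPM of all UMIs (log axis), 1 symbol per library. Right, UMIs of 1 gene per 100 UMIs of its partner, with bars for the exact 95% counting interval, where mt-Atp8 per 100 mt-Atp6 is 21.6 in fed and 21.1 at 16 h against 3.16 to 5.29 in the other libraries.

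Genes around the chain were compared by the same rule. Of 50 assembly factors, which help to build the complexes, 9 to 13 reached the minimum. At 16 h 5 of 9 were lower and none higher, with a median log2 ratio of -0.76, while at 8 h 3 of 12 were higher and 2 lower. Of all genes tested, 14.7% were lower at 16 h, and at 8 h 19.9% were higher and 21.8% lower. Sco2, a copper chaperone of complex IV, had 19.9, 45.6, 116, 34.9 and 52.0 CPM, and Cox17, another copper chaperone, 144, 101, 122, 97.6 and 91.6 CPM. Of the mitochondrial ribosomal protein genes, 23, 26, 22 and 28 reached the minimum at 4, 8, 16 and 24 h. Of these 2, 5, 0 and 7 were higher and 2, 3, 4 and 1 lower, with medians of 0.17, 0.23, -0.43 and 0.27. Of all genes tested 10.7, 19.9, 9.21 and 14.4% were higher and 21.6, 21.8, 14.7 and 23.7% lower, so that 5 of 26 higher at 8 h and 4 of 22 lower at 16 h were near those shares.

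Among the electron carriers 7 of 17 were measured at the minimum. Coq8a, needed for coenzyme Q synthesis, had 78.4, 174, 208, 94.5 and 117 CPM, and Coq10b, which binds coenzyme Q, had 100.5, 29.0, 21.9, 62.2 and 41.0 CPM and was called lower at all 4 times. Etfdh, which passes electrons from fatty acid oxidation to coenzyme Q, had 60.04, 56.3, 88.4, 120 and 81.7 CPM and was called higher at 16 h. The mitochondrial phosphate carrier Slc25a3 had 574, 321, 397, 465 and 333 CPM and was called lower at 4 and 24 h, while Vdac2, a channel of the outer membrane, had 90.4, 78.5, 90.9, 80.1 and 109 CPM and was not called. Lrpprc, which stabilises mtDNA-encoded mRNAs, was the only gene of 22 for mtDNA expression at the minimum, with 113, 55.6, 55.7, 81.3 and 52.3 CPM.

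Of 19 fatty acid oxidation genes, 0, 5, 3 and 5 were higher at 4, 8, 16 and 24 h, compared with 10.7, 19.9, 9.21 and 14.4% of all genes tested. At 4 h 1 was lower and at the later times none. Their medians were -0.15, 0.099, 0.36 and 0.43. Cpt1a, which admits fatty acids to the mitochondrion, had 113, 168, 214, 271 and 368 CPM. Hadha, a subunit of the trifunctional protein, had 221, 157, 238, 239 and 196 CPM and was not called. Of the nuclear regulators, Ppara, a nuclear receptor that induces such genes in fasting, had 50.3, 76.9, 71.6, 82.4 and 112 CPM, and Yy1, a transcription factor, 74.7, 60.8, 78.1, 89.5 and 69.2 CPM. In the citric acid cycle 11 or 12 of 14 genes were measured with 0, 2, 0 and 1 called higher and 1, 0, 1 and 1 lower at 4, 8, 16 and 24 h. The shares of all genes tested were 10.7, 19.9, 9.21 and 14.4% higher and 21.6, 21.8, 14.7 and 23.7% lower. Dlst, a subunit of the 2-oxoglutarate dehydrogenase complex, had 64.9, 94.9, 143, 50.8 and 127 CPM and was called higher at 8 h (1.14) and 24 h (0.96). Idh2, the mitochondrial isocitrate dehydrogenase that uses NADP, was called higher at 8 h (0.74). Cs, the citrate synthase, had 79.8, 42.3, 63.2, 48.6 and 29.7 CPM and was the gene called lower at 4 h (-0.92), 16 h (-0.72) and 24 h (-1.43). The cytosolic ribosomal protein genes, which are likewise short and abundant, had medians of 1.27, 1.31, 0.22 and 1.04, with 71, 69, 7 and 59 of 80 higher at 4, 8, 16 and 24 h. Against the 10.7, 19.9, 9.21 and 14.4% of all genes tested, the 7 of 80 at 16 h were near the share.

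Position in the lobule was approximated by a zone score from 12 portal and 14 central landmark genes, none of them a member, and the outer parts of each library, of 905 to 3041 cells at either end of the score, were compared. The landmarks themselves differed between libraries, since the portal ones summed to 0.660, 0.719, 1.10, 0.555 and 0.880% of all UMIs and the central ones to 0.243, 0.330, 0.215, 0.339 and 0.0877%. At 24 h 7 of 10 central ones at the minimum were lower, against 23.7% of all genes tested. In the liver portal hepatocytes receive blood richer in oxygen. The log2 ratio of the nuclear-encoded total, portal over central, was -0.15, 0.0080, 0.091, 0.040 and -0.28. The central part was shallower, with a median of 2856, 3475, 11254, 3762 and 3370 UMIs against 7220, 19921, 16358, 4748 and 14188 in the portal part. In cells with at least 3000 UMIs the ratios were 0.16, 0.18, 0.085, 0.00080 and 0.049, so that the lower portal values in fed and at 24 h changed sign. The count of members higher in the portal part was 20 of 75, 38 of 74, 58 of 75, 45 of 69 and 11 of 74, where 50.2, 43.9, 39.1, 38.5 and 68.1% of all genes were. No direction of the total between zones held over these settings in fed, at 4 h, 16 h or 24 h, and at 8 h the portal total was the higher in 4 of 5 other settings, between 0.050 and 0.096, while with Cyp2f2 and Cyp2e1 alone as landmarks it was 0.0034 with an interval (-0.0039 to 0.011) that includes 0.

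At the limit of 1000 UMIs complex II was the only complex whose nuclear-encoded total was higher in the portal part in all 5 libraries. The difference was 0.21, 0.064, 0.15, 0.13 and 0.20 on the log2 scale, and in cells with at least 3000 UMIs it was 0.25, 0.088, 0.14, 0.12 and 0.32. With Cyp2f2 and Cyp2e1 alone as landmarks the 24 h value was reversed, at -0.13 (-0.17 to -0.095), and the values at 4 h (0.016) and 16 h (0.033) had intervals that include 0. Its genes did not share the pattern evenly. Sdha had portal ratios of 0.31, -0.042, 0.072, 0.11 and 0.42, and Sdhb of 0.046, 0.43, 0.68, 0.38 and -0.19, the last with an interval of -0.28 to -0.10. Sdhc had 0.19, 0.072, 0.021, 0.0076 and 0.41, and Sdhd 0.11, 0.058, 0.086, 0.23 and -0.064. At 24 h Sdha and Sdhc were thus higher in the portal part and Sdhb lower. All of these differences were under 1.5-fold except that of Sdhb at 8 h.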

How the data were processed

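Single-cell RNA sequencing of 5 hepatocyte libraries was used, 1 for each of fed and 4, 8, 16 and 24 h of fasting. The deposited values are whole-number UMI counts per gene and barcode, not normalized, and per the file headers Cell Ranger 6.0.1 wrote them, with mm10 named in the submitters' processing notes. The labels do not say how the 10000 barcodes per library were chosen or whether introns were counted. The deposited barcode table ties each barcode to its library.

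Counts were summed over the kept hepatocytes and divided by all their UMIs. Since 3' UMIs count molecules, levels were not scaled by length. Doublets were not called. Shares have exact Clopper-Pearson intervals and ratios exact conditional binomial intervals, at 95%. These intervals treat UMIs as independent and say nothing of animals. Because mtDNA and nuclear genes share 1 denominator, a higher mtDNA share lowers nuclear shares. Subunit genes with pseudogenes, near-identical copies or overlapping genes may gain or lose counts in the authors' counting. The share scripts were checked on simulated counts with known fold changes.

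The members and lists were chosen with earlier results of these data known. Genes named were all mtDNA members, the most abundant nuclear member per complex, the 3 highest and 3 lowest ratios per time, the tissue isoforms, subunit c and Sdh genes, and the highest and lowest gene at 24 h of each list around the chain; marker and landmark lists are given as sums and ribosomal protein lists as counts, with Malat1 and Neat1 as RNA quality genes. Ndufb2, Ndufb11, Uqcr10, Uqcr11, Uqcrfs1, Atp5b, Etfdh, Idh2 and the Saa genes were named after their values were seen. Alternatives were other denominators and scalings (TMM in edgeR 4.0.16, used only for scaling), other cell filters, other gene minimums and folds, and other zone rules. Scripts ran in R 4.3.3 and in Python 3.11.15 with scipy 1.17.1. Promoters come from the RefSeq table and mtDNA positions from GENCODE, both of GRCm38. Protein sequences were not used here.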

Additional observations from a re-analysis of the deposited data

Results flagged for a closer look

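Barcodes under 2% mitochondrial UMIs were outside the hepatocyte limits, and they held more of the nuclear-encoded members than the hepatocytes did. Their share of nuclear-encoded UMIs was 9.01, 7.67, 6.56, 6.84 and 7.85% in the order fed, 4, 8, 16 and 24 h, against 2.77, 2.92, 3.02, 2.14 and 3.02% in the hepatocytes. These 2172, 5345, 576, 234 and 5400 barcodes had a median of 1144 to 2640 UMIs, and hepatocyte markers made up 3.34, 3.35, 5.20, 5.37 and 3.02% of their nuclear-encoded UMIs. The counts of such barcodes ranged from 234 to 5400 per library, and no value here shows what they are.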

How the results depend on the processing

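Values in this part are log2 ratios to fed in the order 4, 8, 16 and 24 h, or portal over central in the order fed, 4, 8, 16 and 24 h. The band of 14 to 20% mitochondrial UMIs and the zone comparison from 3000 UMIs were chosen after seeing the data. Of 91 calls of members at single times, 90 kept their sign in each of 11 settings and 47 stayed past 1.5-fold in each. These 47 include 16 of the 26 lower nuclear-encoded calls at 16 h and 10 of the 11 higher ones at 24 h, but 5 of 17 higher ones at 8 h and none of the 6 lower ones at 4 h. Of the higher mtDNA calls they include 2 of 6 at 4 h and 1 of 3 at 24 h, since mt-Nd1, mt-Nd3 and mt-Nd4 at 4 h fell to 0.30, 0.38 and 0.17 in bands of the mitochondrial share. The exception in sign was Ndufa9 at 24 h, at 0.017 with barcodes from 0% mitochondrial UMIs. Leaving out barcodes with markers of other cell types or dropping the upper mitochondrial limit changed no direction of a total.

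For the nuclear-encoded total, the values were 0.072, 0.12, -0.37 and 0.13 over nuclear-encoded UMIs, 0.25, 0.34, -0.32 and 0.27 with TMM, 0.22, 0.32, -0.33 and 0.27 with median-of-ratios scaling, 0.0022, 0.10, -0.39 and 0.11 without genes over 1% of UMIs, and 0.11, -0.059, -0.66 and 0.45 at 0 to 30% mitochondrial UMIs. They were 0.13, 0.21, -0.33 and 0.12 at 5 to 20%, 0.24, 0.25, -0.23 and 0.17 at 14 to 20%, -0.036, 0.24, -0.29 and 0.021 from 3000 UMIs, and 0.11, 0.015, -0.56 and 0.24 as the mean over cells. At 2% or more with no upper limit 4 and 24 h gave -0.060 and 0.050, and without barcodes of other cell types 4 and 8 h gave -0.049 and 0.17. The sign at 4 h was opposite to that reported in 8 of these 11 settings. In 4 of the 8 (nuclear-encoded UMIs, TMM, medians of ratios, no genes over 1%) all genes are rescaled alike, so that these are 1 change of scale, and the total minus the median of all genes was 0.043 in each as in the reported scale. For the other 4 the cause was not tested.

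For the mtDNA-encoded total, the values were 0.80, -0.35, 0.23 and 0.50 over nuclear-encoded UMIs, 0.98, -0.14, 0.28 and 0.65 with TMM, 0.95, -0.16, 0.27 and 0.65 with median-of-ratios scaling, 0.73, -0.38, 0.22 and 0.49 without genes over 1%, and 0.54, -0.25, 0.31 and 0.072 at 0 to 30%. They were 0.48, -0.30, 0.14 and 0.32 at 5 to 20%, 0.18, -0.041, 0.056 and 0.12 at 14 to 20%, 0.67, -0.34, 0.16 and 0.44 from 3000 UMIs, 0.61, -0.28, 0.28 and 0.37 as the mean over cells, and 0.67, -0.32, 0.20 and 0.43 without barcodes of other cell types. With no upper limit 4, 8 and 24 h gave 0.69, -0.30 and 0.44. Each kept its direction.

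Counts of members called moved by more than 1.5 times as follows. With TMM 26, 2 and 25 were higher at 4, 16 and 24 h and 2, 5 and 2 lower at 4, 8 and 24 h, and median-of-ratios scaling gave the same higher counts and 5, 5 and 2 lower. Of all genes tested TMM had 22.7, 28.3, 12.5 and 24.1% higher and 10.2, 16.3, 11.7 and 16.0% lower, and medians of ratios 21.0, 27.7, 12.3 and 24.2% and 11.2, 16.7, 12 and 15.8%. At 0 to 30% 19, 7, 2 and 41 were higher and 3, 15, 45 and 2 lower, beside 12, 18.5, 9.63 and 21.8% and 22.4, 23, 17.3 and 26.8% of all genes. As the mean over cells 8 and 2 were higher at 8 and 16 h and 3, 41 and 2 lower at 4, 16 and 24 h, beside 21.2 and 9.75% and 23.8, 15.9 and 27% of all genes. Over nuclear-encoded UMIs, and without genes over 1%, 1 was higher at 16 h (10.3 and 9.65% of all genes) and 3 were lower at 24 h (20.2 and 20.9%). From 3000 UMIs 5 and 8 were lower at 8 and 24 h (22 and 23.7%), and at 14 to 20% 5 were lower at 4 h (16.2%). At 2-fold 2, 2 and 4 were higher at 4, 8 and 24 h and 2, 4, 1 and 2 lower, beside 4.72, 9.1 and 5.86% and 8.42, 11.2, 4.44 and 12.4% of all genes. Minimums of 10 CPM or none left each count within 1.5 times.

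For the zones, nuclear-encoded UMIs as denominator gave -0.12, 0.016, 0.083 and 0.054 in fed and at 4, 8 and 16 h, a split at the median score gave -0.078, -0.038, 0.050 and -0.20 in fed and at 4, 8 and 24 h, and 5 to 20% gave 0.068, 0.048 and -0.15 in fed and at 4 and 24 h. Cyp2f2 and Cyp2e1 alone gave -0.30, -0.10, 0.0034, -0.022 and -0.83, and 3000 UMIs gave 0.16, 0.18, 0.00080 and 0.049 in fed and at 4, 16 and 24 h. No paired analysis was possible because each group is 1 library.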
